A study of Mus musculus with 48 samples.

Results

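The hypothalamus and the testis of the mouse were compared on oligonucleotide arrays that measured 22626 probe sets. These are short groups of probes, each aimed at 1 or more transcripts. The comparison took 6 hypothalamus RNA samples (3 from males and 3 from females) and 3 testis RNA samples, 9 of the 24 RNA samples of the series, chosen by the tissue word of the sample title. Each RNA sample was a pool of 10 healthy animals, bought as prepared RNA, and was hybridised to 2 arrays, so 18 of 48 arrays entered. The labels give no strain, age or treatment. They leave unsaid whether replicate samples of a tissue were drawn from different pools, so the p-values reflect only how far these samples varied, which may be technical variation. A further 6 liver, 6 kidney and 3 ovary samples, in male and female groups of 3 for liver and kidney, were used where named.

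The labels describe the hypothalamus RNA as total RNA and the testis, liver, kidney and ovary RNA as polyA-selected, whereas their molecule field says total RNA for every sample. By the first of these labels, tissue and RNA preparation cannot be told apart in any difference between hypothalamus and another tissue, while testis, liver, kidney and ovary share 1 preparation. The array's control probe set for the 3′ part of 18S ribosomal RNA, which has no poly(A) tail, read 142.6 to 192.1 in hypothalamus, against 381.1, 396.6 and 2255 in the 3 testis samples. It was thus lower in the tissue labelled as total RNA, and its high testis value came from testis sample 3. The 5′ to 3′ ratio of the actin controls, a sign of RNA integrity, lay between 0.877 and 0.953 in hypothalamus and between 0.837 and 0.879 in testis. That of the Gapdh controls lay between 1.304 and 1.411 in hypothalamus and between 1.073 and 1.254 in testis, without overlap. The part of these values in the results was not tested.

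The hypothalamus is the brain region that links the nervous system to hormone release. It holds neurons that secrete peptides, together with myelin-forming oligodendrocytes, astrocytes and microglia. The testis is mostly germ cells at successive stages, in which spermatogonia divide, spermatocytes go through meiosis and haploid spermatids replace histones with transition proteins and then protamines while they build an acrosome and a flagellum; Sertoli and Leydig cells support them. In spermatocytes the X chromosome is silenced, and several X-linked housekeeping genes have autosomal copies that are active in male germ cells.

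Neuron and spermatid markers followed the tissue labels. The summed intensity of 8 neuron markers was 29450 to 31450 in hypothalamus and 698.1 to 785.6 in testis, and that of 6 spermatid markers was 379.8 to 619.9 in hypothalamus and 67960 to 89420 in testis. Of 10 markers of hypothalamic identity, 8 had a probe set, and their sum was 6787 to 10400 in hypothalamus against 1747 to 2109 in testis. Most of it came from the hormones Avp (mean 4008 in hypothalamus, 131.8 in testis) and Oxt (3314 and 739.5), while Pomc read 328.9 in hypothalamus and 641.7 in testis, Sim1 was close to level (301 and 265), and Otp and Nkx2-1 were too dim to be tested. Summed microglia markers were 6512 to 8406 in hypothalamus and 6071 to 9072 in testis. By the means, Aif1 made up most of the testis sum (244.2 in hypothalamus, 4689 in testis). Csf1r (3600 and 1104), C1qa (2035 and 1328) and Cx3cr1 (771.5 and 94.7) went the other way, and C1qb was close to level (846.8 and 851.6). Summed pituitary markers overlapped, at 385.8 to 651.8 in hypothalamus and 479.6 to 631.8 in testis. Summed Leydig cell markers ranged from 6291 to 12860 over the testis samples, against 319.3 to 410.2 in hypothalamus. In bulk tissue, fewer cells of a type and less RNA per cell cannot be told apart.

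Intensities are on the linear scale of the deposited values, and log2 differences are hypothalamus minus testis on log2(intensity + 48.3), which understates the change of dim genes. A gene was called where the limma adjusted p was under 0.05 and the difference was at least 2-fold. Of 9454 genes tested, 2652 (28.1%) were called higher in hypothalamus and 1983 (21%) lower, 4635 (49%) in all, and the median difference over all genes was 0.24. By adjusted p alone, 46.4% were higher and 33.3% lower. The samples of the tissues did not overlap for 73.4% of genes, with hypothalamus above testis for 42.3% and testis above hypothalamus for 31.1%. Of the 15762 probe sets tested, 31.3% were called higher in hypothalamus and 18.7% lower, 50% in all. When arrays were centred on their medians instead, 1862 were higher and 2654 lower, so that 41.2% of the calls were higher ones, against 57.2% as reported, and the median of all genes moved by -0.42. The hypothalamus arrays had medians of 233.25 to 275.95 and the testis arrays of 163.3 to 190.8, at a common trimmed mean. Without testis sample 3, 2698 genes were higher and 1983 lower. Differences of at least 16-fold were called higher in hypothalamus for 138 genes and lower for 274, and those of at least 64-fold for 7 and 60.

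Snap25, a membrane fusion protein of synaptic vesicles on chromosome 2, was the gene most raised in hypothalamus. Its lowest, median and highest intensities in hypothalamus were 7406, 7824 and 8304, against 8.6, 13.0 and 6.12 in the 3 testis samples, a log2 difference of 7.09 (SE 0.101, limma adjusted p = 1.29e-12). Every hypothalamus sample was far above every testis sample, but only genes without overlap, 73.4% of all genes, could enter this ranking. Ttr, the thyroxine carrier made by the choroid plexus, followed with a log2 difference of 6.93, at 8281, 13320 and 15020 in hypothalamus against 167, 41.3 and 6.60 in testis. Its hypothalamus samples spread more than those of Snap25, and liver, which also makes Ttr, averaged 19240. Mobp, a myelin protein, stood at 6149, 6735 and 7596 in hypothalamus and at 18.4, 4.45 and 5.14 in testis (log2 difference 6.91).

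The other genes among the 15 with the largest increase had log2 differences of 5.69 to 6.42. They included Gpm6a, a neuronal membrane glycoprotein, Nefl, the light neurofilament subunit, Pcp4, a calmodulin regulator, and Mbp, the myelin basic protein. Nap1l5, Snhg11, Nsg2, Resp18, Rcan2, 6330403K07Rik, Mt3 and Cbarp made up the rest. Resp18, a protein of neuroendocrine secretory granules, had 2859, 3167 and 3506 in hypothalamus and 5.998, 7.33 and 7.55 in testis. Not all of these were low in the other tissues, as Nap1l5 averaged 1662 in ovary and Gpm6a 2005 in kidney.

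Tnp2, a transition protein that binds DNA while histones are removed, was the gene most reduced in hypothalamus. It stood at 3.797, 5.13 and 6.99 in hypothalamus (lowest, median, highest) and at 16890, 17520 and 13520 in testis, a log2 difference of -8.21 (SE 0.113, limma adjusted p = 1.29e-12). Ldhc, the lactate dehydrogenase of sperm, followed at 20.5, 22.4 and 29.8 in hypothalamus and 22270, 21600 and 19090 in testis (-8.19). Tnp1 and Prm2, the other transition protein and a protamine, had differences of -7.83 and -7.74.

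The genes next in size had differences of -7.06 to -7.52. Odf1 of the outer dense fibres, Smcp of the mitochondrial capsule and Ropn1l of the fibrous sheath differed by -7.52, -7.48 and -7.42. Hils1, a linker histone of spermatids, differed by -7.39, Rpl39l, a ribosomal protein copy, by -7.33 and Pgam2, a phosphoglycerate mutase, by -7.23. Tsga8, Fabp9, Pdcl2, Crisp2 and Hmgb4 were the others. Hmgb4, a chromatin protein of germ cells, read 3.34, 6.54 and 8.05 in hypothalamus and 9824, 11400 and 3291 in testis. Testis sample 3 was the lowest of the testis samples for 14 of these 15 most reduced genes, all but Rpl39l. The genes were chosen among calls whose tissues did not overlap, as 73.4% of all genes did not. That every testis sample lay above every hypothalamus sample was therefore fixed by the choice. The part of the makeup of testis sample 3 in the differences was not tested.

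**Figure D1:**
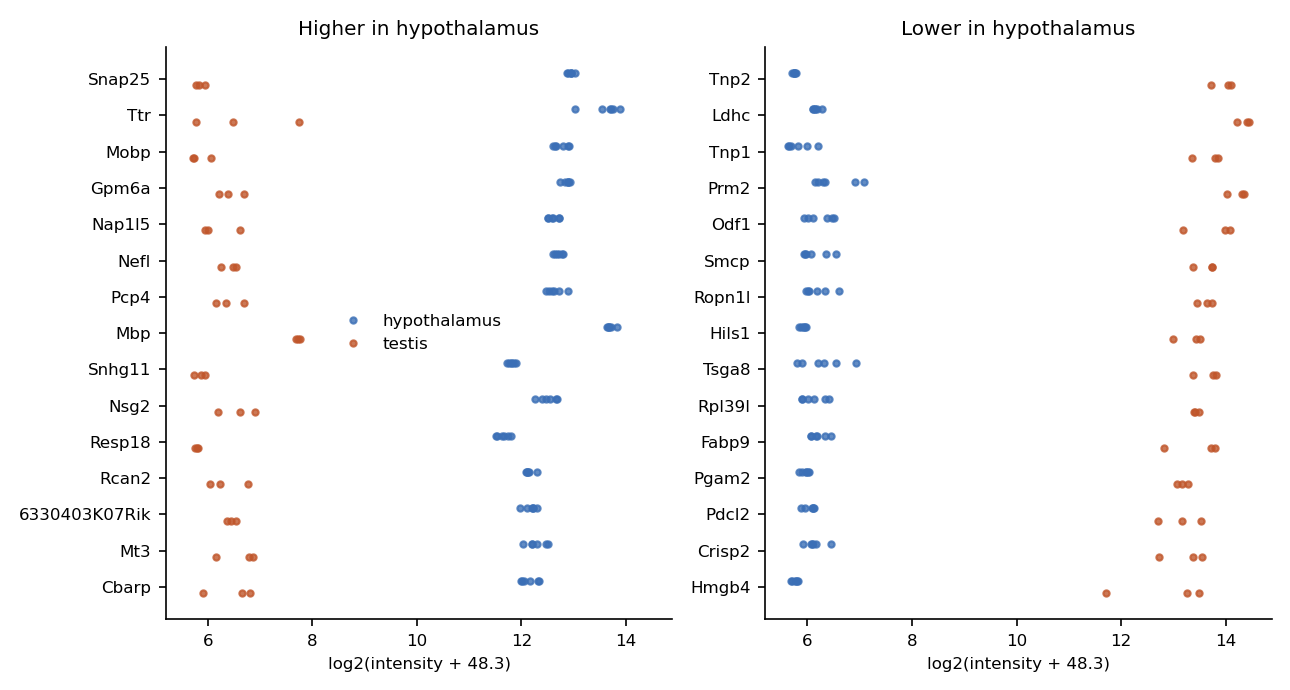
Values of the 15 genes most raised (left) and the 15 most reduced (right) in hypothalamus, 1 point per RNA sample, hypothalamus in blue and testis in orange, on log2(intensity + 48.3). No points of the 2 tissues overlap within a gene, which was a condition of the choice and held for 73.4% of all genes. The testis values of Hmgb4 run from 3291 to 11400.

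The tested genes of synaptic vesicle release and of the neuronal cytoskeleton were higher in hypothalamus by their brightest probe sets. All 19 tested genes of synaptic vesicle release were called higher (28.1% of all genes), with a median difference of 3.79 against 0.24 over all genes. They ran from Stx1a (1.83), a plasma membrane syntaxin, to Snap25, and the largest after it were Cplx1 (5.002), a complexin, Syp (4.92), a vesicle membrane protein, and Syt1 (4.88), the calcium sensor. All 21 tested genes of the neuronal cytoskeleton were called higher too, with a median of 4.19, led by Nefl (6.27) and the stathmins Stmn3 (5.66), Stmn2 (5.59) and Stmn4 (5.52), which bind tubulin. For Dpysl3, a regulator of growth cones in this list, the brightest probe set gave 2.06 and the other called probe sets -3.47 and -4.95, so its direction depends on the probe set.

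Genes for making and receiving transmitters followed the same direction with exceptions. Among all genes 28.1% were called higher, the share to set beside each count here. Of 9 tested genes of transmitter synthesis and transport, 8 were higher. Gad1, which makes GABA, read 3276, 3475 and 3890 in hypothalamus and 26.6, 19.4 and 18.8 in testis (5.67). Slc17a6, the vesicular glutamate transporter, differed by 5.56. Ache, which breaks down acetylcholine, differed by 3.81 and Slc32a1, the vesicular GABA transporter, by 3.69. Hdc, which makes histamine, was lower in hypothalamus, at 54.0 against 202 in testis (-1.29). Of 18 transmitter receptor genes, 14 were higher, with Gria1 (4.72) and Gria2 (4.22) for glutamate and Gabbr1 (4.25) and Gabrb1 (3.69) for GABA in front. Grin2b, an NMDA receptor subunit, was lower, at 72.1, 109 and 145 in hypothalamus against 1450, 1757 and 641 in testis (-2.98). Of 16 voltage-gated channel genes, 15 were higher, led by the sodium channels Scn2a (4.76) and Scn1a (4.57) and the potassium channels Kcna1 (3.99) and Kcnd2 (3.78); Kcnj3 was not called (0.63). Of 12 neuronal RNA-binding proteins, 9 were higher, with Celf4 (4.33), Rbfox1 (3.95), Elavl4 (3.89) and Elavl3 (3.74) in front. With centring on array medians 12 receptor, 13 channel and 8 RNA-binding protein genes were higher. Among all 9454 genes, 2652 were higher as reported and 1862 with that centring.

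The peptide messengers separated into those of the hypothalamus and a few with a comparable signal in testis. Of 20 tested neuropeptide genes, 15 were called higher in hypothalamus and none lower, where 28.1% and 21% of all genes were. Cck, a peptide of satiety, read 1499, 1716 and 1858 in hypothalamus against 15.7, 11.4 and 12.1 in testis (4.84). Avp, the antidiuretic hormone, read 2667, 3937 and 5222 in hypothalamus against 142.9, 123.3 and 129.3 in testis (4.46), and varied almost 2-fold among hypothalamus samples. Tac1 (4.26), the source of substance P, and Sst (3.94), which inhibits growth hormone release, came next. Oxt, oxytocin, was higher by 2.09, at 2701, 3356 and 3679 against 714, 696 and 808 in testis, where liver and kidney averaged as much (853 and 866).

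Penk, the enkephalin precursor, was not called, at 936, 1572 and 2302 in hypothalamus against 2402, 2791 and 1578 in testis (-0.54, limma adjusted p = 0.0977), and the groups overlapped. Pomc, the precursor of melanocortins and endorphin, was not called either, being under 2-fold, at 285, 335 and 364 in hypothalamus against 700, 621 and 604 in testis (-0.87, limma adjusted p = 2.69e-05). With centring on array medians 14 neuropeptides were called higher and 2 lower. Of 13 genes of peptide processing and dense core granules, 11 were higher and 2 not called. The granins Scg2 (5.62) and Scg3 (5.31), the prohormone convertase chaperone Scg5 (5.44) and Cadps (4.99), a priming factor for granules, were the largest. Among 9 tested transcription factors of hypothalamic development, 2 were called higher and 2 lower, where 28.1% and 21% of all genes were. Nkx2-2 (2.82) and Isl1 (2.53) were higher, with 4 higher when testis sample 1 was left out, and Nr5a1 (-1.67), which also controls steroid enzymes in the gonads, and Nkx2-4 (-2.06) were lower. Of the 19 with a probe set only these 9 passed the filter on dim values.

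Oligodendrocyte and astrocyte markers were mostly higher in hypothalamus, and most microglia and macrophage markers were not called. Of 13 oligodendrocyte markers 12 were called higher, with Mobp (6.91), Mbp (5.97), the transcription factor Olig1 (4.98) and the myelin enzyme Cnp (4.83) leading; Fa2h, a fatty acid hydroxylase, was not called (0.29). Of 14 astrocyte markers 12 were higher. Mt3, a brain metallothionein, differed by 5.69, Aldoc, an aldolase, by 4.74 and S100b, a calcium-binding protein, by 4.41; Slc1a3, a glutamate transporter, differed by 4.36. Glul, glutamine synthetase, was called lower by its brightest probe set (-2.29) and higher by another (2.15). Of 12 microglia and macrophage markers 3 were higher, P2ry12 (2.72), Cx3cr1 (2.51) and Csf1r (1.71), and 8 were not called. Among all genes 28.1% were higher and 21% lower, so this count of higher calls was near the share of all genes. Aif1 was lower, at 172, 252 and 299 in hypothalamus against 5780, 6277 and 2010 in testis (-3.87). Its probe set is of a type that can read several transcripts, as are those of Tnp2, Tsga8, Gpm6a, Ttr and Cbarp. Of 4 tested markers of choroid plexus and ependyma, Ttr (6.93) and Kl (1.20) were higher, and Folr1 (-1.44) and Foxj1 (-1.19), a ciliary transcription factor, were lower, with 1 lower when testis sample 3 was left out. Only 1 was higher with quantile normalization or with centring on array medians. The median of these 4 was 0.01 as reported, and -0.32 and -0.41 with those scalings. Of 10 endothelial markers 4 were higher, led by Flt1 (1.68), but 1 when arrays were centred on their medians. Among all 9454 genes, 2652 were higher as reported and 1862 with that centring. Of 8 long noncoding RNAs 7 were higher, with Snhg11 (5.96), Meg3 (3.96), Malat1 (3.68) and Rian (3.63) first. The count was 5 with centring on array medians, 6 with quantile normalization and 5 to 7 when 1 sample was left out. Malat1, a nuclear RNA, varied from 863 to 2620 in hypothalamus, against 95.9, 136 and 14.1 in testis.

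**Figure D2:**
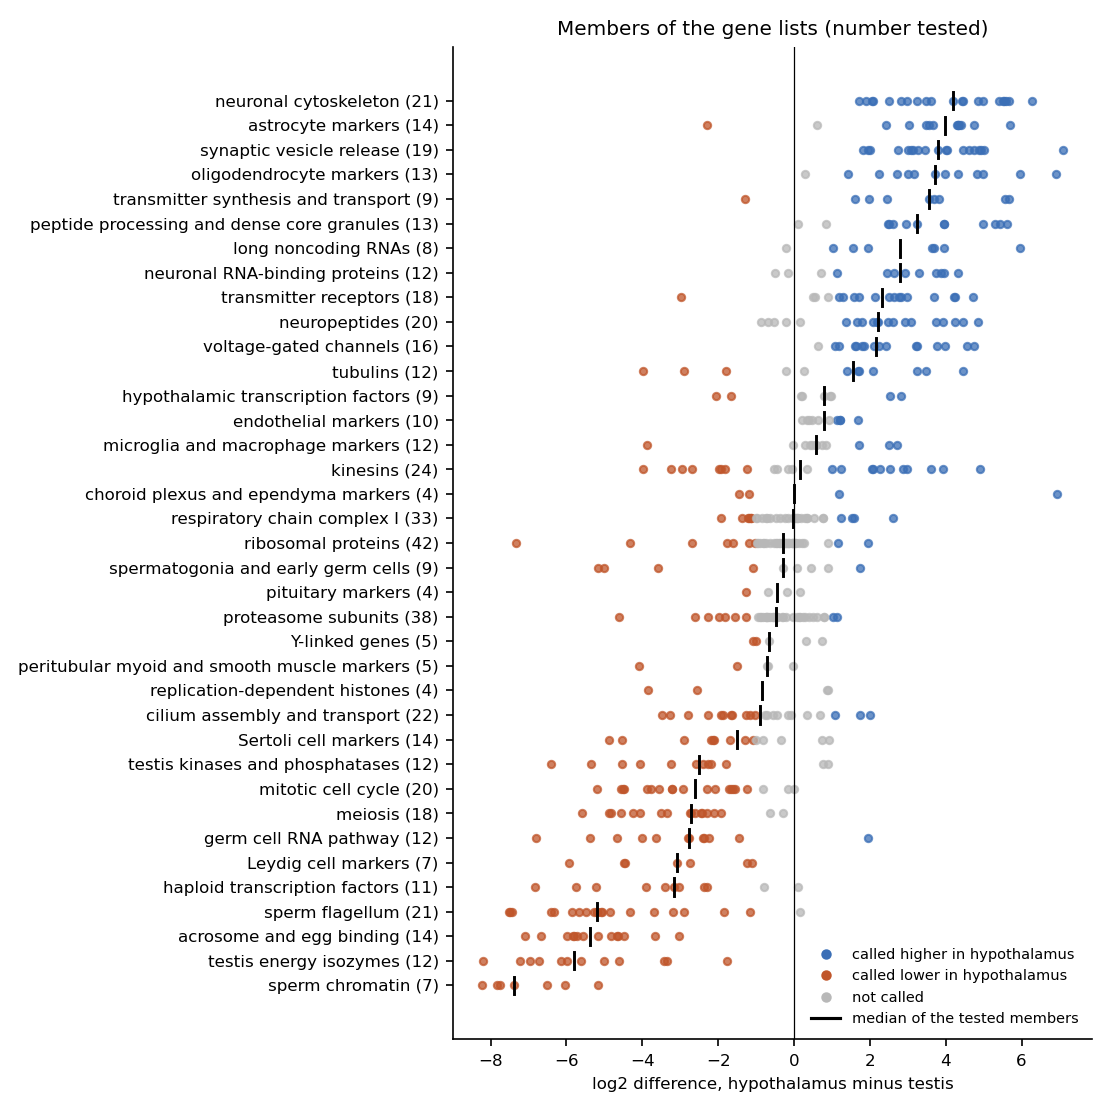
Log2 difference, hypothalamus minus testis, of each tested member of the lists with at least 4 tested members, ordered by median (black bar). Blue points were called higher in hypothalamus, orange points lower and grey points were not called. Synaptic, cytoskeletal, astrocyte and oligodendrocyte lists lie to the right and sperm lists to the left, with sperm chromatin at a median of -7.39.

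Most genes of germ cells in meiosis and later were lower in hypothalamus. Of 18 meiosis genes tested, 16 were called lower (21% of all genes) and none higher. Brdt, a bromodomain protein that binds acetylated histones, read 12.4, 19.2 and 35.8 in hypothalamus against 3829, 4131 and 2202 in testis (-5.59). Stag3 (-4.88), a meiotic cohesin subunit, Syce2 (-4.84), of the synaptonemal complex, and Psmc3ip (-4.57), a recombination factor, followed. Before meiosis the picture was mixed. Of 9 genes of spermatogonia and early germ cells 4 were lower, Dmrtb1 (-5.16), Ddx4 (-5.01), Dazl (-3.59) and Stra8 (-1.07), while Gfra1, a receptor subunit for GDNF that neurons also make, was higher (1.75).

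The RNA pathway of germ cells had 11 of 12 tested genes lower, where 21% of all genes were. Ybx2, which holds stored mRNA in germ cells, differed by -6.79, Adad1, an RNA-binding protein of the testis, by -5.37 and Papolb, a cytoplasmic poly(A) polymerase, by -4.67; Piwil1, which binds piRNAs, differed by -3.999. Cpeb1, which regulates poly(A) tails in oocytes and neurons, was higher, at 531, 599 and 626 in hypothalamus against 93.4, 131 and 127 in testis (1.96).

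Every tested gene for sperm chromatin (7 of 7), for the acrosome and egg binding (14 of 14) and for testis energy isozymes (12 of 12) was called lower, with medians of -7.39, -5.37 and -5.80. Among all genes 21% were called lower. The acrosome list was led by Crisp2 (-7.08), a sperm-egg fusion protein, and by Spesp1 (-6.68), Adam5 (-5.97) and Adam3 (-5.82). Of 21 flagellum genes 20 were lower and Odf2, which centrosomes also use, was not called (0.15). Among 12 testis kinases and phosphatases 10 were lower, with the spermatid kinases Tssk2 (-6.40), Tssk3 (-5.36) and Tssk1 (-4.53) in front. Of 11 haploid transcription factors 9 were lower, with Spz1 (-6.83), Fhl5 (-5.75), Gtf2a1l (-5.23) and Rfx2 (-3.91) largest. Crem, whose activator form drives spermatid genes, was not called, at 186, 201 and 214 in hypothalamus against 201, 175 and 171 in testis (0.11).

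Markers of somatic testis cells were lower in hypothalamus or not called. All 7 tested Leydig cell markers were called lower in hypothalamus, where 21% of all genes were. Cyp17a1, an enzyme of androgen synthesis, read 26.1, 40.1 and 87.0 in hypothalamus against 4798, 4279 and 8716 in testis (-5.94); its highest value was in testis sample 3, where most of the leading germ cell genes were lowest. Hsd3b1 (-4.48), Cyp11a1 (-4.46) and Hsd17b3 (-3.10) are enzymes of the same pathway. Of 14 Sertoli cell markers 9 were lower, led by Cst12 (-4.87) and Cst9 (-4.54), of the cystatin family, Rhox5 (-2.89), a homeobox gene, and Dmrt1 (-2.19). Cst12 was uneven in testis, at 5662, 4890 and 1217. Of 5 myoid and smooth muscle markers 2 were lower, Actg2 (-4.09) and Acta2 (-1.503), and 4 with centring on array medians. Among all 9454 genes, 1983 were lower as reported and 2654 with that centring.

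Cell division genes were lower as well, 17 of 20 tested, with Ccnb2 (-5.20), a cyclin, Bub1 (-4.56), a spindle checkpoint kinase, Birc5 (-4.50) and Cdk1 (-4.48) the largest. Of 22 cilium assembly genes 11 were lower and 3 higher, where 21% and 28.1% of all genes were. Ift172 (-3.49), Ift140 (-3.27), Ift74 (-2.79) and Ift122 (-2.26), of intraflagellar transport, were the most reduced, and Kifap3 (2.00), Ahi1 (1.73) and Tulp3 (1.08) were raised.

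Motor and microtubule genes were divided between the tissues by isoform. Of 24 kinesin genes 11 were higher in hypothalamus and 8 lower, where 28.1% and 21% of all genes were. The higher ones included Klc1 (4.91), a kinesin light chain, and the axonal motors Kif1b (3.92), Kif5a (3.62) and Kif5c (2.99). The lower ones included Kif9 (-3.99), found in motile cilia, and the mitotic motors Kif2c (-3.24), Kif20a (-2.95) and Kif23 (-2.70). The median over all 24 was 0.15, and -0.27 with centring on array medians. Of 12 tubulins 7 were higher, with the beta tubulins Tubb4a (4.45), Tubb2a (3.48), Tubb2b (3.24) and Tubb3 (2.08) first. Tuba8 (-3.98), Tubb6 (-2.91) and Tubb4b (-1.79) were lower, Tubb4b at 3568, 3739 and 3859 in hypothalamus against 13640, 13240 and 12250 in testis.

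Genes of machines that every cell uses mostly did not pass 2-fold, apart from single members. Of 42 ribosomal protein genes 33 were not called, 2 were higher and 7 lower, with a median of -0.29. Rps4x, on the X chromosome, was higher, at 5191, 5671 and 6286 in hypothalamus against 1167, 837 and 3009 in testis (1.96). Its autosomal relative Rps4l was lower, at 34.0, 84.5 and 115 in hypothalamus against 2111, 1866 and 3760 in testis (-4.33), as were Rpl39l (-7.33), Rps27l (-2.70) and Rplp0 (-1.78). Of 38 proteasome genes 29 were not called, 2 were higher and 7 lower. Psma8, the alpha subunit of spermatocytes, had the largest decrease (-4.62), followed by Psmc3 (-2.60), Psmd8 (-2.28) and Psma6 (-1.97). Of 33 respiratory complex I genes 23 were not called, 4 were higher and 6 lower, with Ndufa4 (2.60) and Ndufb1 (-1.92) at the ends. In all 3 lists the share called higher was below the 28.1% of all genes. The share called lower was near the 21% of all genes. These 3 lists depend on the scaling: with centring on array medians 14 ribosomal, 16 proteasome and 12 complex I genes were called lower, and the complex I median was 0.36 with quantile normalization against -0.02 as reported.

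Several enzymes and structural proteins exist as a general form and a testis form, and such pairs were listed. Of 38 listed pairs 24 had both members tested, with Ldhc in 2 of them. The listed testis form was called lower in hypothalamus in 23 of the 24, where 21% of all genes were. The general form was called higher in 12 pairs, lower in 5 and not called in 7, so that 11 pairs had opposite calls. Among all genes 28.1% were higher, and the share of general forms called lower was near that of all genes.

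The X-linked enzyme Pgk1, phosphoglycerate kinase of glycolysis, stood at 6290, 6929 and 7271 in hypothalamus and at 1052, 810 and 1093 in testis, a log2 difference of 2.76. Its chromosome 17 copy Pgk2 stood at 6.08, 10.2 and 17.1 in hypothalamus and at 7920, 7285 and 4112 in testis (-6.72). Pdha1, the X-linked subunit of pyruvate dehydrogenase, had 3904, 4239 and 4694 in hypothalamus and 405, 425 and 344 in testis (3.30). Its chromosome 3 copy Pdha2 had 4.70, 5.56 and 8.03 in hypothalamus and 3342, 3144 and 5149 in testis (-6.14). In both pairs the samples of the tissues did not overlap for either member, which was so for 73.4% of all genes.

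The 200 bases upstream of the annotated starts of both pairs, and of Resp18 and Tnp2 from each end of the comparison, are shown because they differ in CG dinucleotides, the site of DNA methylation. The sequences are from RefSeq (GRCm38.p6), written 5′ to 3′ on the gene's strand, with CG in capitals. They lie at chrX:106186900-106187099 (plus strand) for Pgk1, chr17:40208610-40208809 (minus) for Pgk2, chrX:160138431-160138630 (minus) for Pdha1, chr3:141212356-141212555 (minus) for Pdha2, chr1:75278416-75278615 (minus) for Resp18 and chr16:10788656-10788855 (minus) for Tnp2.
Pgk1: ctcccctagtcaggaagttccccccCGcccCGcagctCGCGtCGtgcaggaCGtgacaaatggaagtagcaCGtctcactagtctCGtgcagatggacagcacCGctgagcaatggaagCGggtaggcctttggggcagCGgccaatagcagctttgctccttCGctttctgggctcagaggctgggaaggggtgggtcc
Pgk2: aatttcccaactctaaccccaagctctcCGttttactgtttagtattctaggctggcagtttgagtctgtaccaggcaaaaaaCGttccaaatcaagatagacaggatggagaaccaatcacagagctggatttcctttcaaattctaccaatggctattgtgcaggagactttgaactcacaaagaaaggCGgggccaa
Pdha1: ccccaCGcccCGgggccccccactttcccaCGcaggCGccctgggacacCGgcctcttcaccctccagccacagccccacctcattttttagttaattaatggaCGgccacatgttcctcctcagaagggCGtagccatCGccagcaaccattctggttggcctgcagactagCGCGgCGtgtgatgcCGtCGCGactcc
Pdha2: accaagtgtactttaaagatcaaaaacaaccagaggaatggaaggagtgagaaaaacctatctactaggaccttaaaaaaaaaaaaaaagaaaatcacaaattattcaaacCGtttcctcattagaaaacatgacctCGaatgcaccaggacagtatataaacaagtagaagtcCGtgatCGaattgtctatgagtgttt
Resp18: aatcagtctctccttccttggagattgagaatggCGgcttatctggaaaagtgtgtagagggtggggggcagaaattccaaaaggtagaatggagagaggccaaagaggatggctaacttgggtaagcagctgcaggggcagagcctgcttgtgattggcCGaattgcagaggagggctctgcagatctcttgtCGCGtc
Tnp2: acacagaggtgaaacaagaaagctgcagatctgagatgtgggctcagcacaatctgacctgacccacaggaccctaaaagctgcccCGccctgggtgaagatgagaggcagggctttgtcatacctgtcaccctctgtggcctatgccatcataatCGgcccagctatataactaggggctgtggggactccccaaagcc
The printed stretch held 12 CG dinucleotides for Pgk1 against 3 for Pgk2, and 14 for Pdha1 against 4 for Pdha2; Resp18 held 4 and Tnp2 held 2. Over 250 bases upstream of 7654 tested genes with a sequence, the median was 16 CG dinucleotides. It was 10 in the 104 windows of genes at least 16-fold higher in hypothalamus and 7 in the 224 windows of genes at least 16-fold lower. The GC box GGGCGG, searched on both strands, occurred in 42.3% of the windows of the higher genes and 33.0% of those of the lower genes, against 57.8% of all. GTTGCC, one arm of the X-box read by RFX factors, occurred in 10.6% and 18.3%, against 10.5% of all. The cAMP response element TGACGTCA occurred in 4.81% and 1.79%, only 5 and 4 windows, against 2.59% of all. GGGCGG and TGACGTCA contain a CG, so their counts are not independent of the CG counts. These counts describe letters in a window, are not tested, and the motifs were chosen after the windows had been looked at.

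Of the 6 pairs with an X-linked general form, the remaining 4 were these. The X-linked Smc1a and Cetn2 were higher in hypothalamus by 1.58 and 1.27. Cstf2 was higher by 2.63 by its brightest probe set and not called by its other one (-0.57, limma adjusted p = 0.0324), and Timm8a1 was not called (0.87). Their autosomal testis forms Smc1b (-3.52), Cetn1 (-3.52) and Timm8a2 (-2.48) were lower. Cstf2t, the copy of the polyadenylation factor Cstf2, was the exception among the testis forms, at 0.79 and not called. Autosomal general forms that were higher included Cox6b1 (1.99; Cox6b2 -5.62) and Cox8a (1.68; Cox8c -3.43) of cytochrome oxidase, the chaperones Canx (1.66; Clgn -4.65) and Hspa8 (1.39; Hspa2 -3.25), the phosphatase subunit Ppp3ca (1.60; Ppp3cc -3.25), the aldolase Aldoa (1.24; Aldoart1 -3.35) and the cohesin Rad21 (1.75; Rec8 -2.61).

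In 5 pairs both forms were lower in hypothalamus. Ldha, the muscle type of lactate dehydrogenase, read 1524, 1706 and 1975 in hypothalamus against 11780, 10970 and 9222 in testis (-2.57), whereas Ldhb, the heart type, was not called (0.56). Ybx1 (-2.81, with Ybx2 at -6.79) binds mRNA, and Tbp (-2.37, with Tbpl1 at -3.39) starts transcription. Pabpc1 (-2.17, with Pabpc2 at -5.11) binds poly(A), and Vdac2 (-1.26, with Vdac3 at -1.17) is a mitochondrial channel. Vdac3 was listed as a testis form, but it averaged 2804 in hypothalamus and 6360 in testis and was no more reduced than Vdac2. Cycs (0.45; Cyct -4.61), Oxct1 (0.65; Oxct2a -5.99), Stag1 (-0.11; Stag3 -4.88), Ccna2 (-0.01; Ccna1 -4.07) and Papola (-0.96; Papolb -4.67) had a general form that was not called.

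**Figure D3:**
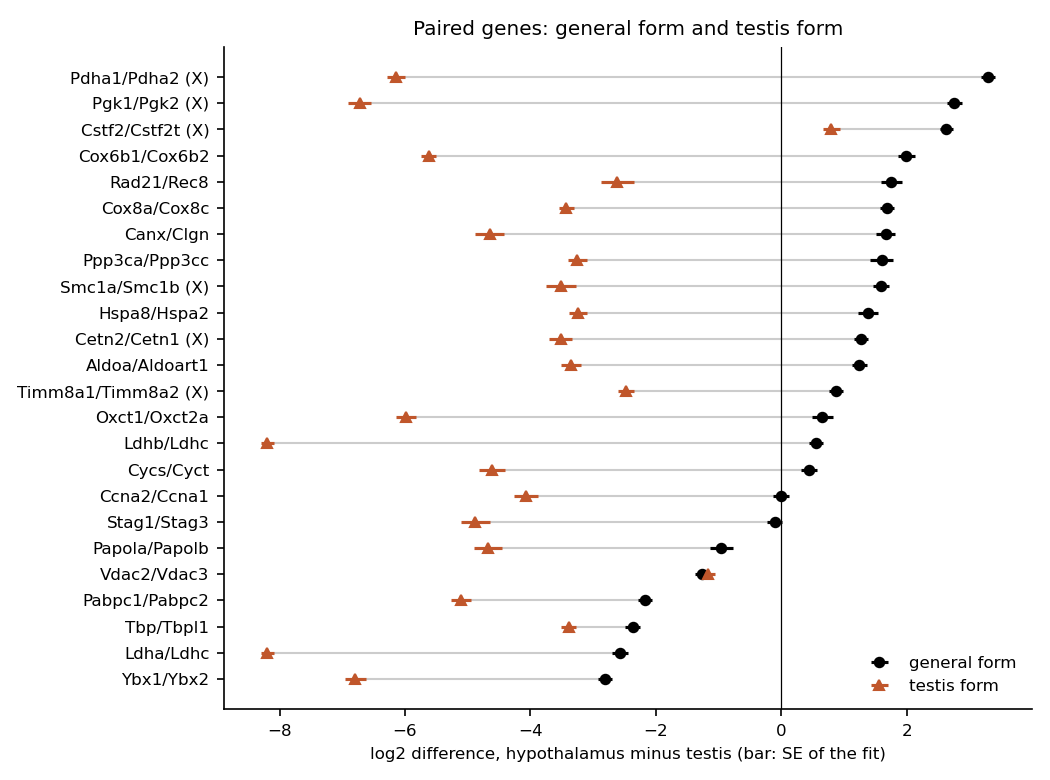
Log2 difference, hypothalamus minus testis, of the general form (black circles) and the testis form (orange triangles) of 24 pairs, with the SE of the fit as bars; pairs whose general form lies on the X are marked. All triangles except that of Cstf2t lie left of 0, and the highest circles are those of Pdha1, Pgk1 and Cstf2, all X-linked, of which Cstf2 read -0.57 by its other probe set.

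X-linked genes were shifted toward hypothalamus. Of 295 tested X-linked genes, 147 (49.8%) were called higher in hypothalamus and 37 (12.5%) lower, against 27.4% and 21.2% of 9138 autosomal genes. The median difference was 1.00 on the X and 0.21 on the autosomes. Among the 19 autosomes taken singly, 23.2% to 34.3% of genes were higher, 17.3% to 24.6% lower, and medians ran from 0.07 to 0.48, so the X lay outside the range of each. With centring on array medians 36.3% of X-linked genes were higher and 14.9% lower, against 19.2% and 28.5% on the autosomes.

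The X-linked genes most raised were Syp (4.92), Fgf13 (4.87), a regulator of sodium channels, Rtl8c (4.61), Tmem47 (4.58) and Bex2 (4.28). Syp read 2921, 3794 and 4312 in hypothalamus against 119, 60.3 and 56.2 in testis. The X also held genes among the most reduced. Tsga8 (-7.36), Cypt1 (-6.48) and Akap4 (-6.40), an anchor of the fibrous sheath, are active in spermatids, and Akap4 read 42.8, 63.95 and 119 in hypothalamus against 11070, 8871 and 9003 in testis. Asb9 (-5.44) and H2ap (-5.21) followed.

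**Figure D4:**
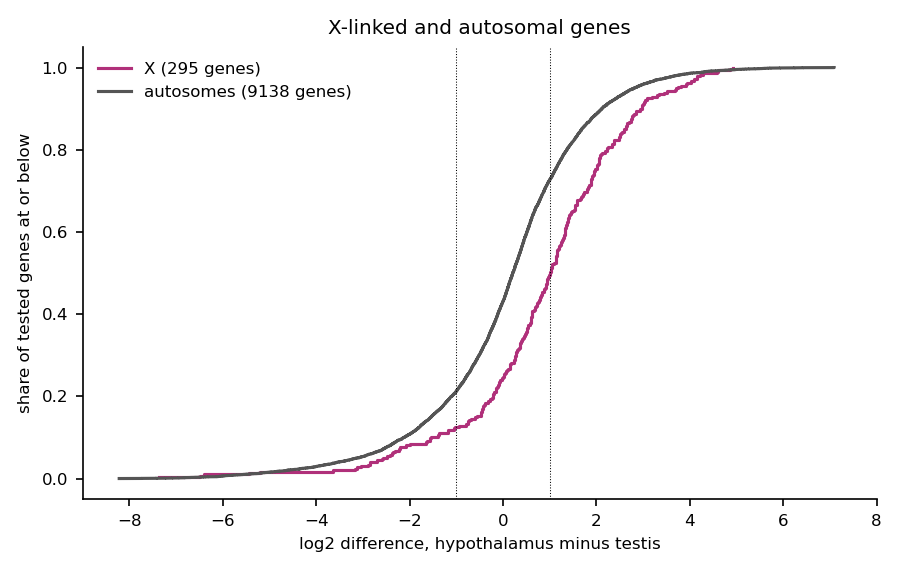
Share of tested genes with a log2 difference, hypothalamus minus testis, at or below the value on the horizontal axis, for 295 X-linked (magenta) and 9138 autosomal genes (grey); dotted lines mark 2-fold. The X curve lies to the right over most of its length, with medians of 1.00 and 0.21.

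Genes high in both tissues and low in liver and kidney were sought in a fit of the hypothalamus, testis, liver and kidney samples. A gene was taken where hypothalamus and testis each exceeded liver and kidney by at least 2-fold with adjusted p under 0.05, every hypothalamus and testis sample lay above its array median and every liver and kidney sample below. The 4 contrasts share the same liver and kidney samples. Of 10615 genes, 81 (0.763%) met the rule, and 283 (2.67%) met the 4 contrasts alone. Just inside the fold limit were Slc7a6 (smallest of the 4 differences 1.02), Kcnh2 and Serpini1 (1.04 each), and just outside were Dpysl4 and Nrgn (0.99 each) and Cenpc1 (0.98).

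Sh3gl3, endophilin A3 of endocytosis, had the largest smallest difference, 4.21. Its intensities were 895, 1556 and 2087 in hypothalamus (lowest, median, highest) and 2706, 3039 and 2470 in testis, against 17.1 to 55.4 over the 12 liver and kidney samples. Ovary stood between, at 189, 149 and 226. Acsl6, which activates long-chain fatty acids, was next (4.07), at 2447, 2746 and 2814 in hypothalamus and 1515, 1979 and 1666 in testis, against 31.3 to 91.4 in liver and kidney. Mapk8ip2, a scaffold of the JNK pathway, was the next (3.78), with testis values of 1105, 1513 and 2808.

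The other genes among the 20 with the largest difference covered signalling, lipid and structural roles. Ppp2r2b (3.54) is a phosphatase subunit, Tmod2 (3.52) and Sptbn4 (3.08) belong to the actin and spectrin skeleton, and Chn1 (3.44) acts on the GTPase Rac. Acsbg1 (3.28) is another enzyme that activates fatty acids, and Uchl1 (2.79) removes ubiquitin. Cldn11 (3.06) forms the tight junctions of both myelin and Sertoli cells, and read 488.6, 590.9 and 790.7 in testis. C1qtnf4 (3.46), Abhd8 (3.36), Ddx25 (3.21), Rundc3a (2.93), Reep2 (2.92), Ccdc136 (2.89), Mlc1 (2.84), Spock2 (2.79), Zfp428 (2.67) and Fxyd6 (2.66) were the others.

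Of the 81, 24 (29.6%) were called higher in hypothalamus than in testis and 17 (21%) lower, shares near those of all genes (28.1% and 21%), and 40 were not called. Ddx25, an RNA helicase of spermatids, was at 1003, 1102 and 1144 in hypothalamus against 7440, 7065 and 8321 in testis. Spock2, a secreted proteoglycan, was at 4609, 5138 and 5826 in hypothalamus against 651, 1083 and 816 in testis. The ovary was not part of the rule. All 3 ovary samples lay above all liver and kidney samples for 53 of the 81 (65.4%), against 26.5% of all 10615 genes and 34.7% of the 1843 genes whose liver and kidney samples were all below their array medians. All 3 ovary samples were above their array median for 28 (34.6%), against 62.3% of all genes and 10.7% of those 1843, and none was for 45 (55.6%), against 30.2% and 80.6%. Acsbg1 was highest in ovary, at 2530, 2765 and 3867. Of the 81, 80 were autosomal and 1, Pcsk1n, was X-linked, where 3.03% of the genes tested lie on the X. From the lists described above the set held Foxj1, Ddx25, Zfp37, Map2, Tubb3, Uchl1, Pcsk1n and Cldn11.

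**Figure D5:**
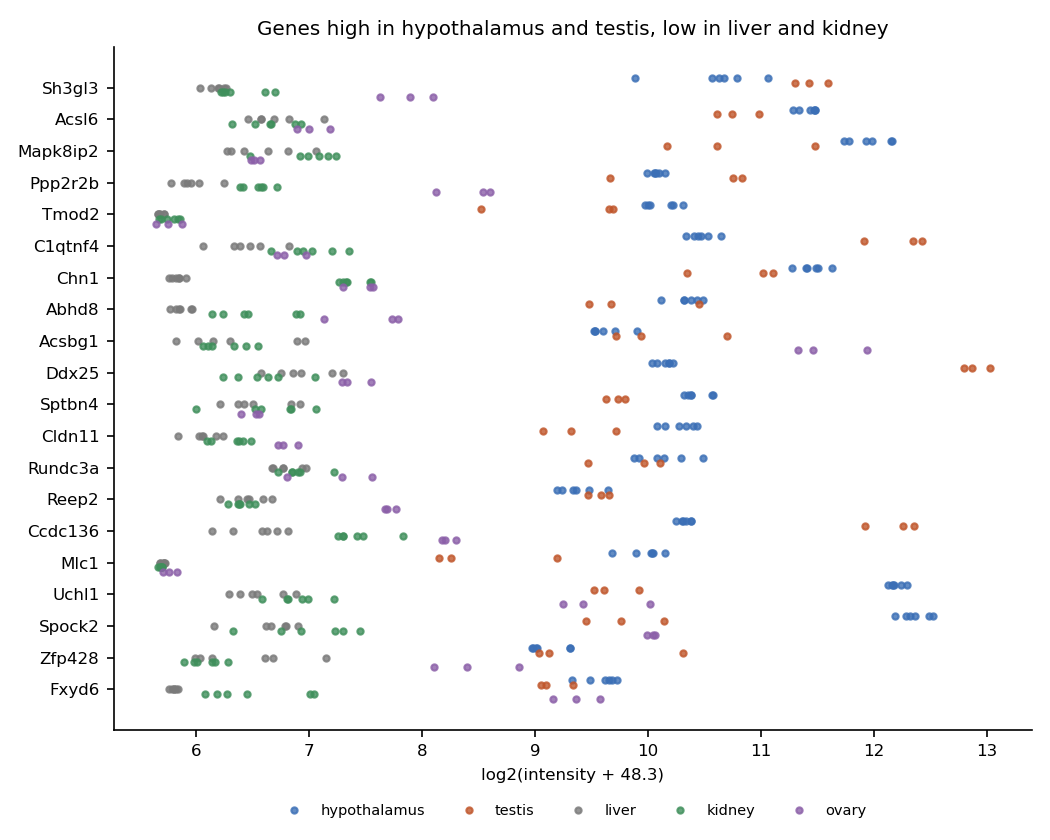
Intensity on log2(intensity + 48.3) of the 20 genes with the largest smallest difference, 1 point per RNA sample, in hypothalamus, testis, liver, kidney and ovary. Hypothalamus and testis points lie to the right of all liver and kidney points, and ovary points vary from the low to the high end by gene.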

How the data were processed

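The arrays were 3′ expression arrays for the mouse. The deposited value table holds linear intensity values per probe set, whose 2% trimmed mean was close to 500 on every array (499.57 to 500.13 on the 18 used); how the probes were summarised is not given in the sources used here, and detection calls were not used. Per the labels, each RNA sample had 2 arrays, which were averaged as log2(deposited intensity + 48.3), the pseudocount being the 20th percentile of all values. Of 22690 probe sets, 64 were controls; 20380 had 1 gene symbol, 691 several and 1555 none. Entrez IDs linked 20351 to RefSeq genes (GRCm38.p6).

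Probe sets above the 40th percentile of their array in at least 3 RNA samples were tested (15762 probe sets, 9454 genes by their brightest probe set) with limma 3.58.1 in R 4.3.3 (lmFit, eBayes), with Benjamini-Hochberg adjustment over all probe sets. The sexes were separate groups, and hypothalamus was the mean of both. Named genes were the 15 largest non-overlapping calls in each direction, the 4 largest calls of each list in each direction, all tested isozyme pairs and the 20 leading shared genes; list members named besides these, X-linked genes outside these groups and genes beside the fold limit were chosen after their values were seen. Members, lists and rules were chosen with earlier results of these data known. The fit was checked on simulated data. The number of arrays limits the precision. Alternatives covered scaling, pseudocount, filter, model, threshold and left-out samples.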

Additional observations from a re-analysis of the deposited data

Results flagged for a closer look

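Among the 3 male and 3 female hypothalamus samples of 50 examined genes, Rcan2 had 1 sample far from the rest, male hypothalamus 2 at 4968, where the other 5 lay between 4295 and 4453; chance alone marks about 1 in 20 such groups. Its difference from testis (5.80) is far larger than this gap.

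Male and female hypothalamus differed in genes of the sex chromosomes, by a test of that difference in the same limma fit of 15762 probe sets. The male minus female log2 differences of the Y-linked genes Eif2s3y, Kdm5d and Uty were 1.82, 1.62 and 1.33 (adjusted p = 0.00257, 0.0129 and 0.00511). Eif2s3y averaged 175 in male and 15.4 in female hypothalamus, with 208 in testis. Xist, the RNA that silences an X chromosome in females, differed by -3.82 and -2.50 by its 2 probe sets (adjusted p = 6.06e-07 and 0.0118), and the first averaged 16.97 in male and 879 in female hypothalamus, with 9.03 in testis. A further 3 probe sets with no gene name differed by 3.62, 2.89 and 1.95 (adjusted p = 0.00188, 0.00358 and 0.00404).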

How the results depend on the processing

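All 4635 genes at 2-fold or more had an adjusted p under 0.05, so in the fit as reported the fold limit set every call. A test against 2-fold itself (treat) gave 1979 higher and 1571 lower. The counts were 4386 higher and 3151 lower in hypothalamus with no fold limit, and 1109 and 1010 at 4-fold, where 2 isozyme pairs kept opposite calls and 73 X-linked genes were higher and 24 lower. Quantile normalization gave 2197 higher and 2279 lower, or 49.1% of the calls higher, and moved the median of all genes by -0.28. Leaving out 1 sample at a time gave 2623 to 2698 higher and 1972 to 2020 lower genes, and 79 to 95 shared genes, the most without testis sample 3. The shared set held 47 genes at 4 times the pseudocount, 31 at 4-fold, 25 with the 40th and 60th percentiles in place of the median and 283 with no condition on medians; 16 of its 20 leading genes remained at those percentiles. Cstf2 read -0.55 with male hypothalamus only, where another of its probe sets was the brightest. Stag1 read 0.16 as a mean of probe sets. Ccna2, close to 0 throughout, read 0.15 on first arrays and -0.08 to 0.05 in the leave-one-out fits. Replicate numbers are shared by the groups. Same-numbered hypothalamus and testis samples did not deviate together (r of -0.138 to 0.041). Between male and female hypothalamus r was 0.367, 0.094 and 0.298 for samples 1, 2 and 3, and the test between the sexes did not pair them. A block for the replicate number gave counts of 2652 and 1983 for hypothalamus against testis, with 81 shared genes.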

Other observations

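Probe sets of 1 gene did not always point the same way. Of 3386 genes with several tested probe sets, 134 had probe sets called in both directions, and 1213 had 1 called and another not. Glul, glutamine synthetase, read 2940 to 4133 in hypothalamus against 559, 549 and 1343 in testis by 1 probe set (2.15), and 1101 to 1540 in hypothalamus against 7136, 6993 and 6327 in testis by another (-2.29). Dpysl3 had 3 probe sets called, at 2.06, -3.47 and -4.95. Dynll2, a dynein light chain, had 2.89 and -2.75, Chn2 had 2.69 and -3.83, and Polb, a DNA repair polymerase, had 2.32 and -2.73. Whether these probe sets read different transcript ends was not tested.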
